A study of Rattus norvegicus with 24 samples.

Results

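Genes that build, cut and grip the extracellular matrix were followed in rat hearts, right ventricle and left, in a study of compensated and decompensated cardiac hypertrophy after monocrotaline. The members were all array genes whose symbols begin with Col and a digit, Mmp and a digit, Timp, Itga, Itgb, Lama, Lamb, Lamc or Adam, together with Fn1, Sparc, Spp1, Tnc, Dcn, Bgn, Lum, Lox and Vcan. Eln and Postn, which the rule also names, had no probe in the annotation used. This gave 62 genes on 63 probes, of 4126 named genes and 4651 features in all. Of these, 13 had no value on any array and 17 had values on fewer than 2 arrays of some right ventricle group, so that 32 genes entered the right ventricle comparisons, among 3199 features. The 24 arrays comprised 6 CHF, 6 HYP and 6 CON right ventricle samples and 2 CHF, 2 HYP and 2 CON left ventricle samples, all labelled day 14. CHF and HYP are read as heart failure and compensated hypertrophy from the title of the series and CON as the control, since the labels spell none of them out and give no strain, age, sex or dose. The labels name no agent for the single groups. Nothing in them says that the samples are separate animals, so the spread behind each p-value could be technical.

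The cardiac matrix is a mesh of fibrillar collagens, laid down mainly by fibroblasts, that surrounds the muscle cells and carries force between them. Matrix metalloproteinases and ADAM or ADAMTS proteases cut matrix and cell-surface proteins, and tissue inhibitors of metalloproteinases, the Timp proteins, block many of them. Laminins and non-fibrillar collagens form the basement membrane around each muscle cell, and integrins, pairs of an alpha and a beta chain, tie that membrane to the cytoskeleton. Monocrotaline is a plant alkaloid that injures lung vessels and so loads the right ventricle, and fibrosis is a well-known feature of pressure-loaded hearts.

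Each array carried a ventricle sample and a reference pool in different colours. The deposited score is read as the ratio of sample to pool, standardised within the array, and is given here minus the array median, in array SDs. A difference of 1 is therefore 1 SD of the probes on an array and is not a log2 fold change. An array held between 2162 and 3658 values of 4803 probes. Values were deposited with 2 decimals on left ventricle arrays 15 of CHF and 21 and 22 of CON, and with 3 on all others. The direction of the ratio is not settled, because 13 of 276 pairs of arrays correlated below -0.3 across probes, the lowest at -0.530 between CHF right ventricle array 14 and HYP right ventricle array 08. Comparisons are therefore also given with the sign turned on 5 arrays, namely right ventricle arrays 10 and 14 and left ventricle array 09 of CHF, and both CON arrays of the left ventricle (21 and 22). Differences are given with the standard error (SE) of the limma fit and a Benjamini-Hochberg adjusted p over all features, and a gene was called at an adjusted p below 0.05.

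Coverage differed between the roles. Of 10 fibrillar and other collagens, 6 entered the right ventricle comparisons, and of 6 basement membrane collagens and laminins 4 did. Of 11 matrix metalloproteinases 4 were measured, and Mmp8, Mmp9, Mmp10, Mmp12 and Mmp14 had no value on any array. Both Timp1 and Timp2 were measured on all 24 arrays, while Timp3 was not measured often enough. The ADAM and ADAMTS proteases gave 6 of 14 genes, the integrin alpha chains 2 of 6, the integrin beta chains 3 of 3, the adhesive proteins 2 of 4, and the proteoglycans with Lox 3 of 5. Fibronectin (Fn1), biglycan (Bgn), versican (Vcan) and the integrin chains Itga1, Itga7 and Itgam were among the 17 genes with too few values. Osteopontin (Spp1) had a value on 1 array only, CON left ventricle array 22, at 5.01. Dcn, which encodes the collagen-binding proteoglycan decorin, had the highest mean score of the 32 genes in CON right ventricles (1.76 ± 0.684, SD, n = 6), and Itgb7, a leukocyte integrin chain, the lowest (-1.0 ± 0.829, SD, n = 5). A score compares a sample with the pool for the same probe, so these values do not rank the genes by abundance.

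**Figure D1:**
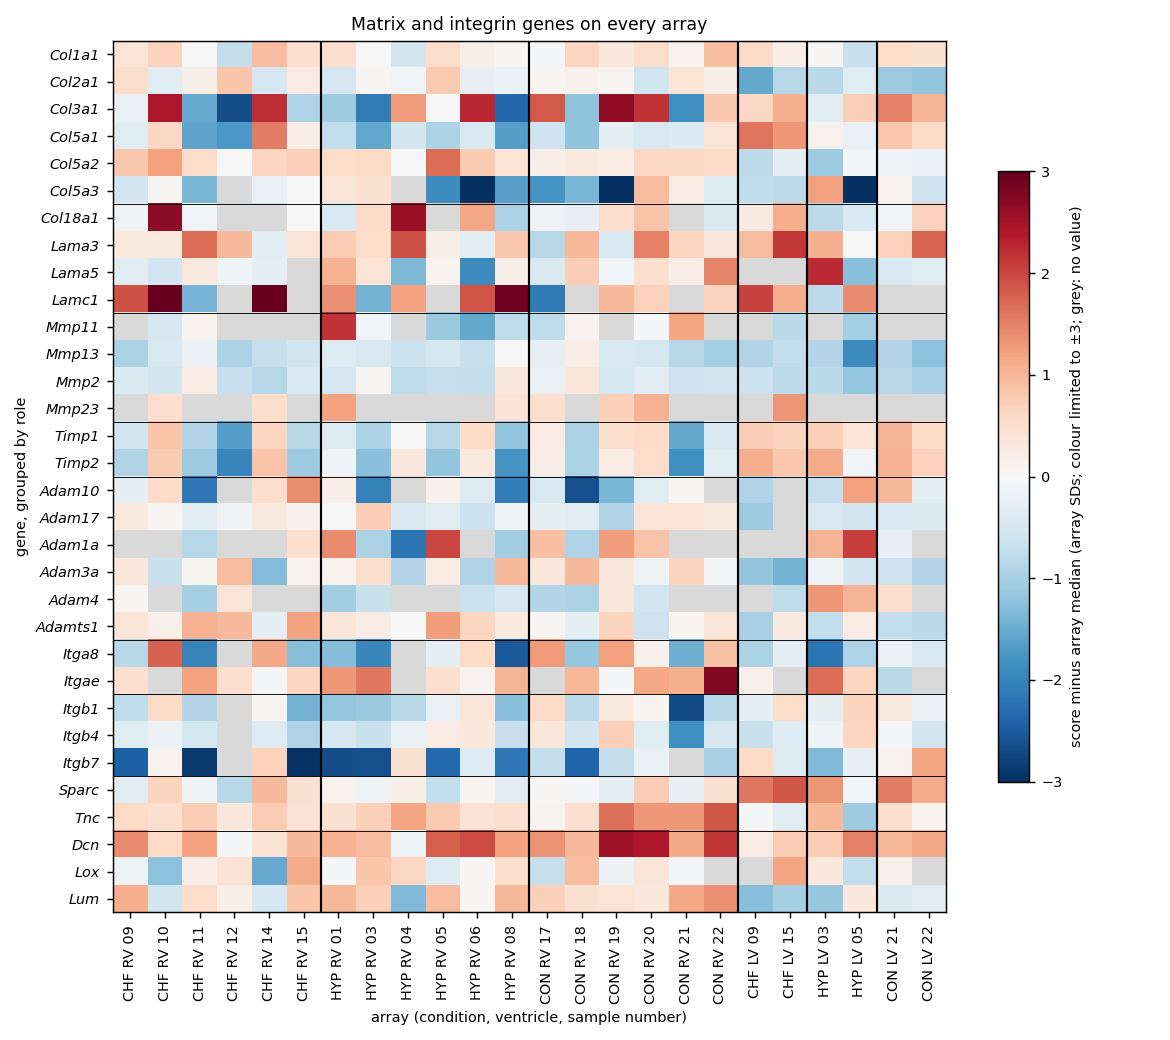
The score minus the array median (colour, in array SDs, limited to ±3) is shown for the 32 genes measured in the right ventricle groups (rows, by role, separated by lines) on every array (columns, by group). Grey marks no value. Col3a1, Timp1, Timp2, Itga8 and Itgb7 change colour together from array to array within each right ventricle group, while Dcn and Tnc are above 0 on nearly all right ventricle arrays.

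The first comparison asked whether matrix genes differed between failing and control right ventricles. None of the 32 genes was called between CHF and CON, against 29 of 3199 features (0.907%). The gene with the smallest p was Dcn, whose protein binds collagen fibrils and limits their width. Dcn lay at -0.0280, 0.779 and 1.42 (lowest, median and highest of 6) in CHF right ventricles, against 0.962, 1.74 and 2.53 in CON. The groups overlapped, since the lowest CON value lay below the highest CHF values. Its difference was -0.993 ± 0.374 (SE, limma unadjusted p = 0.0159, adjusted p = 0.404), and it was the only one of the 32 genes with an unadjusted p below 0.05, a level that 8.5% of all features passed. Of 17 genes with a value on all 12 arrays of the comparison, 0 had groups that did not overlap, against 1.45% of such features. The median difference of the 32 genes was -0.137, with 13 above 0, and that of all features was -0.0992. It ran from -0.238 without CON array 21 to -0.0478 without CHF array 11, and was -0.321 with the sign turned.

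The fibrillar collagens, which give the matrix its tensile strength, lay on both sides of 0. Col1a1, the main chain of type I collagen, lay at -0.704, 0.458 and 0.919 in CHF and at -0.0480, 0.425 and 0.898 in CON, with a difference of -0.107. Col3a1, the type III chain, spread far more widely. It lay at -2.65, -0.567 and 2.43 in CHF and at -1.84, 1.32 and 2.66 in CON, a difference of -0.849 ± 1.01 (limma adjusted p = 0.848). Both groups held arrays above 2 and arrays below -1 for Col3a1, so its spread within a group exceeded the difference. The type V chains, which help set fibril width, differed by 0.208 ± 0.466 (Col5a1), 0.237 ± 0.266 (Col5a2) and 0.466 ± 0.730 (Col5a3). In the basement membrane group, Lamc1, a laminin gamma chain shared by many laminins, had the largest difference of all 32 genes, 2.05 ± 1.16 (limma adjusted p = 0.658). It was measured on 4 arrays of each group, at -1.40, 1.92, 3.89 and 4.0 in CHF and at -2.12, 0.677, 0.687 and 0.974 in CON. The CHF values of Lamc1 at 3.89 and 4.0 came from arrays 14 and 10, and with the sign turned on these the difference was -1.90. Lama5, a laminin alpha chain, differed by -0.606 ± 0.461 and the other measured members of this group, Lama3 and Col18a1, were not called.

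The proteases and their inhibitors gave no call either. Timp1, an inhibitor known to rise with cardiac fibrosis, lay at -1.65, -0.691 and 0.829 in CHF and at -1.54, -0.106 and 0.608 in CON, a difference of -0.146 ± 0.462 (limma adjusted p = 0.947). Timp2, which both inhibits metalloproteinases and takes part in activating pro-Mmp2, differed by -0.202 ± 0.533. The CHF and CON ranges of both inhibitors overlapped almost fully. Mmp13, the rat interstitial collagenase, differed by -0.155 ± 0.236, and as deposited all 4 measured metalloproteinases had differences below 0. Under the turned signs Mmp23 was at -1.26, while Mmp11 (0.173), Mmp13 (0.237) and Mmp2 (0.335) lay above 0. Adamts1, a secreted protease that cuts aggrecan and versican, lay at -0.274, 0.665 and 1.21 in CHF and at -0.617, 0.0370 and 0.672 in CON, a difference of 0.540 ± 0.301 (limma adjusted p = 0.640). Adam10, a sheddase that releases the ectodomains of membrane proteins, differed by 0.982 ± 0.680 on 5 arrays of each group.

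Among the genes for adhesion, Tnc stood nearest the threshold after Dcn. It encodes tenascin-C, a matricellular protein that appears in the heart after injury. Tnc lay at 0.331, 0.536 and 0.753 in CHF and at 0.0930, 1.31 and 1.86 in CON. The 6 CHF values were close together, while the CON values were spread and reached both below and above them. Its difference was -0.567 ± 0.276 (limma adjusted p = 0.593). Sparc, a collagen-binding matricellular protein, differed by 0.0232 ± 0.305. The integrin chain Itga8, a partner of Itgb1 in receptors for several matrix proteins, differed by -0.398 ± 0.748, and Itgae, the alpha chain that pairs with Itgb7 on lymphocytes, by -0.622 ± 0.444. Lum, which encodes the proteoglycan lumican, differed by -0.479 ± 0.399, and Lox, the enzyme that crosslinks collagen and elastin, by -0.272 ± 0.433.

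When CHF arrays 10 and 14 had their sign turned, 0 of the 32 genes and 9 of 3199 features were called between CHF and CON (limma), 6 of the 32 had an unadjusted p below 0.05, and 12 changed the sign of their difference. The turned differences were -1.34 for Dcn, -0.976 for Tnc, -2.39 for Col3a1, -0.642 for Col1a1 and -0.635 for Timp1, each of the same sign as before, and 0.639 for Lox, whose sign changed. With both of these arrays left out, 0 members were called as well. Leaving out CHF array 12, which had the fewest values, turned the sign of the small differences of the markers Col1a1 (to 0.0941) and Timp1 (to 0.102). Only the markers and the genes with the smallest p were followed in this fit, so other members may change sign too.

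In compensated hypertrophy, 0 of the 32 genes were called between HYP and CON right ventricles, against 9 of 3199 features (0.281%), and 0 had an unadjusted p below 0.05 (limma), against 4.1% of all features. The median difference of the 32 genes was -0.230, with 10 above 0, against -0.0456 for all features. Leaving out 1 array gave medians from -0.305 (without HYP array 01) to -0.0995 (without CON array 20). No right ventricle array of HYP or CON was among those with the sign turned, so these differences were by construction the same under both readings. HYP array 04 kept its sign. Its median correlation with the other right ventricle arrays was -0.0321, against 0.0824 for CHF array 10, which was turned. The differences with HYP array 04 turned were not computed. Dcn lay at -0.109, 1.12 and 1.95 in HYP, against 0.962, 1.74 and 2.53 in CON, a difference of -0.626 ± 0.374. Tnc lay at 0.444, 0.598 and 1.2 in HYP, against 0.0930, 1.31 and 1.86 in CON, a difference of -0.443 ± 0.276. Both genes thus had means below CON in HYP as in CHF, and the CON arrays are shared by the 2 comparisons. Itga8 lay at -2.51, -1.96, -1.29, -0.261 and 0.591 on 5 HYP arrays, against -1.47, 0.519 and 1.29 in CON, a difference of -1.24 ± 0.748. Lama5 differed by -0.650 ± 0.440. The marker collagens differed by -0.287 ± 0.282 (Col1a1) and -1.07 ± 1.01 (Col3a1) and Timp1 by -0.205 ± 0.462. The limma adjusted p of each of these genes was above 0.99. Of 20 genes with a value on all arrays of the 2 groups, 0 had groups that did not overlap, against 0.759% of such features.

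**Figure D2:**
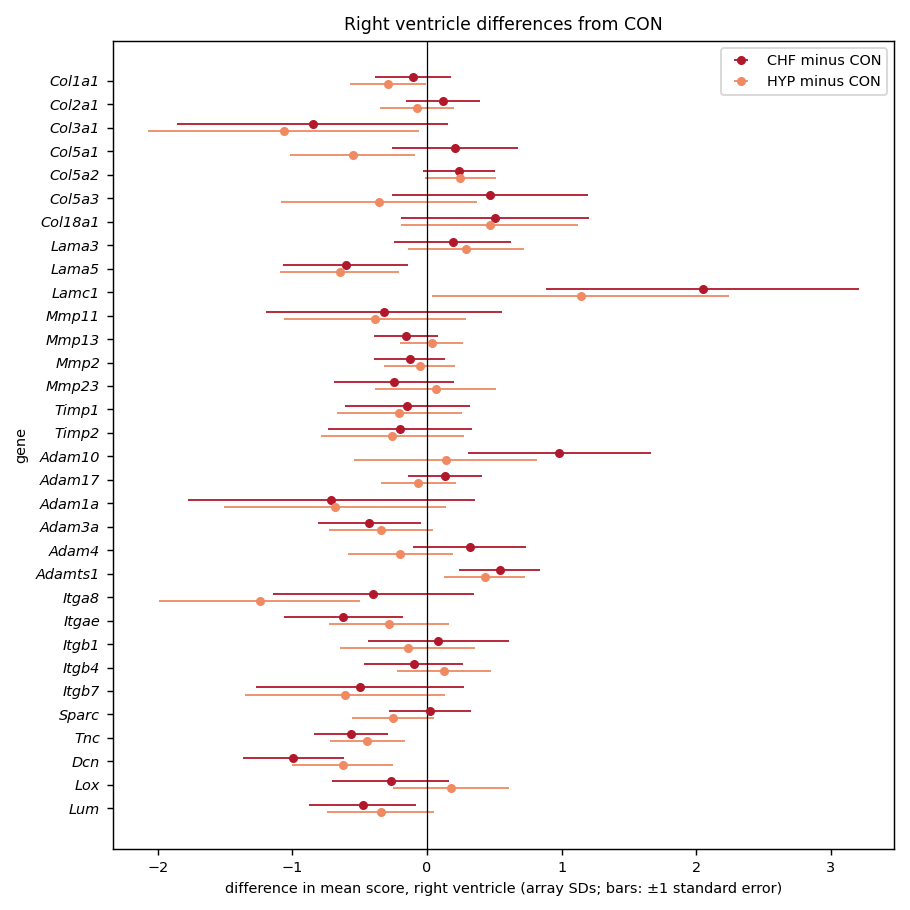
Differences in mean score between CHF and CON and between HYP and CON right ventricles (horizontal axis, in array SDs, bars 1 SE of the limma fit) are drawn for the 32 genes by role. None was called, and the widest bars belong to Col3a1, Lamc1 and Adam1a. The CON arrays are shared by both comparisons.

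Between failing and compensated right ventricles, CHF against HYP, 0 of the 32 genes and 0 of 3199 features (0%) were called, and 0 of the 32 had an unadjusted p below 0.05 (limma), against 4.94% of all features. The median difference was 0.0581, with 19 genes above 0, against -0.0442 for all features. The median was -0.0325 without CHF array 10, and -0.0357 with the sign turned, when 15 genes lay above 0 and 16 changed sign, so its direction was not settled. Col5a1 had the smallest p. It lay at -1.73, -0.0810 and 1.53 in CHF, against -1.65, -0.843 and -0.453 in HYP, a difference of 0.761 ± 0.466 (limma adjusted p = 0.940). The HYP values all lay below 0, while the CHF values reached from below the lowest HYP value to well above the highest. Adam10 differed by 0.846 ± 0.680, Adam4, another ADAM gene, by 0.514 ± 0.422 and Lox by -0.449 ± 0.413. Under the turned signs, Col5a1 differed by 0.0420 and Lox by 0.462, and 0 members were called. Of 18 genes with all values, 0 had groups that did not overlap, against 0.234% of such features.

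As deposited, more of the genes were called between the ventricles than between the conditions. The difference right over left, averaged over the 3 conditions, was tested on all 24 arrays, where 22 of the genes and 2494 features had enough values. Of the 22, 11 were called, 7 higher and 4 lower in the right ventricle, against 457 of 2494 features (18.3%), of which 294 (11.8%) were higher and 163 (6.54%) lower. An unadjusted p below 0.05 was reached by 13 of the 22 and by 36.1% of all features. These calls depend on the direction of 3 of the 6 left ventricle arrays and 2 right ventricle arrays. With the sign turned on those 5 arrays, 0 of the 22 and 0 of 2494 features were called (limma). Of the 22, 3 had an unadjusted limma p below 0.05, and 4 of the 11 called genes changed sign. Those arrays were picked by their correlation with the right ventricle arrays. How much of this fall comes from that choice was not tested. As deposited, the 3 left ventricle arrays among them correlated with other left ventricle arrays at 0.0904 to 0.696. The median correlation was 0.423 between left ventricle arrays and 0.0651 between right and left ventricle arrays.

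Among the collagens, Col5a2 and Col2a1 were higher and Col5a1 lower in the right ventricle. Col5a2, a type V chain that joins fibrils of type I collagen, lay between -0.0100 and 1.68 on the 18 right ventricle arrays, with a mean over the conditions of 0.583. On the left ventricle arrays it lay at -0.790 and -0.270 in CHF, -1.08 and -0.0280 in HYP and -0.100 and -0.200 in CON. All right ventricle values of Col5a2 lay above all left ventricle values, the only one of 16 genes with every value for which this held, against 0.742% of such features. The gap was narrow, from -0.0280 to -0.0100. Its difference was 0.995 ± 0.214 (n = 18 and 6, limma adjusted p = 0.00560), and 0.424 with the sign turned. Col2a1, the type II collagen of cartilage, averaged 0.0551 in right and -0.979 in left ventricles, a difference of 1.03 ± 0.212 (limma adjusted p = 0.00422), and -0.149 with the sign turned. Col5a1 had a median of -0.0810 in CHF, -0.843 in HYP and -0.448 in CON right ventricles, against 1.60 and 1.3 in CHF, 0.116 and -0.226 in HYP and 0.820 and 0.590 in CON left ventricles. Its difference was -1.24 ± 0.352 (limma adjusted p = 0.0222), and -0.480 with the sign turned. The type V partners Col5a1 and Col5a2 thus stood on opposite sides. Col1a1 (0.0829 ± 0.217) and Col3a1 (-0.673 ± 0.766), the collagens that dominate the cardiac matrix, were not called.

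Both measured inhibitors were lower in the right ventricle. Timp1 reached from -1.65 to 0.829 on the right ventricle arrays. It lay at 0.733 and 0.670 in CHF, 0.709 and 0.420 in HYP and 1.02 and 0.580 in CON left ventricles, with all 6 values within a narrow band above 0, so that the ranges overlapped at the top of the right ventricle range. The difference was -1.07 ± 0.350 (limma adjusted p = 0.0408), and -0.452 with the sign turned. Timp2 differed by -1.29 ± 0.412 (limma adjusted p = 0.0363), and by -0.532 with the sign turned. Of the proteases, Mmp13 averaged -0.527 in right and -1.09 in left ventricles, a difference of 0.560 ± 0.191 (limma adjusted p = 0.0451) that was -0.313 with the sign turned. Mmp2, a gelatinase made by cardiac fibroblasts, differed in the same direction by 0.493 ± 0.197 but was not called (limma adjusted p = 0.0794). Adamts1 differed by 0.815 ± 0.251 (limma adjusted p = 0.0316) and Adam3a, which in mouse serves sperm function, by 0.883 ± 0.291 (limma adjusted p = 0.0417). The turned values were -0.0152 and 0.215.

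Of the adhesive proteins and proteoglycans, Sparc was lower and Tnc and Lum were higher in the right ventricle. Sparc reached from -0.842 to 0.981 on the right ventricle arrays, against 1.59 and 1.86 in CHF, 1.33 and -0.0770 in HYP and 1.57 and 1.11 in CON left ventricles. All of its right ventricle values lay below 5 of the 6 left ventricle values. Its difference was -1.19 ± 0.251 (limma adjusted p = 0.00513), and 0.0482 with the sign turned. Tnc averaged 0.786 in right and 0.0293 in left ventricles, a difference of 0.757 ± 0.255 (limma adjusted p = 0.0437), and it was the called gene whose difference changed least with the sign turned, at 0.808. Its left ventricle values were spread, from -1.06 on HYP array 05 to 0.999 on HYP array 03. The Tnc difference was 0.414 without the first of these arrays and 1.10 without the second. Lum differed by 1.10 ± 0.317 (limma adjusted p = 0.0238), and by 0.555 with the sign turned. Of 4 integrin chains tested, Itgb7 (-1.36 ± 0.556), Itgb1 (-0.707 ± 0.390), Itgb4 (-0.175 ± 0.273) and Itga8 (0.447 ± 0.555), 0 were called.

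**Figure D3:**
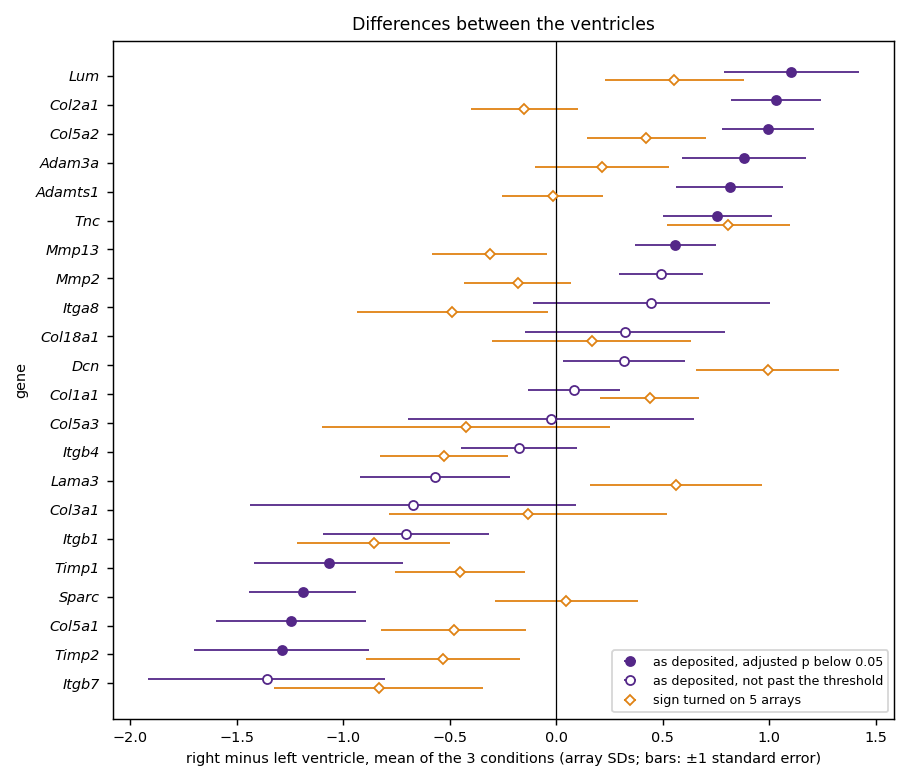
Right minus left ventricle differences, averaged over the 3 conditions (horizontal axis, in array SDs, bars 1 SE), are drawn for 22 genes as deposited (circles, filled where the adjusted p was below 0.05) and with the sign turned on 5 arrays (diamonds). The filled circles mark 7 genes above 0 and 4 below 0, and the diamonds of Col2a1, Sparc, Adamts1 and Mmp13 lie on the other side of 0.

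**Figure D4:**
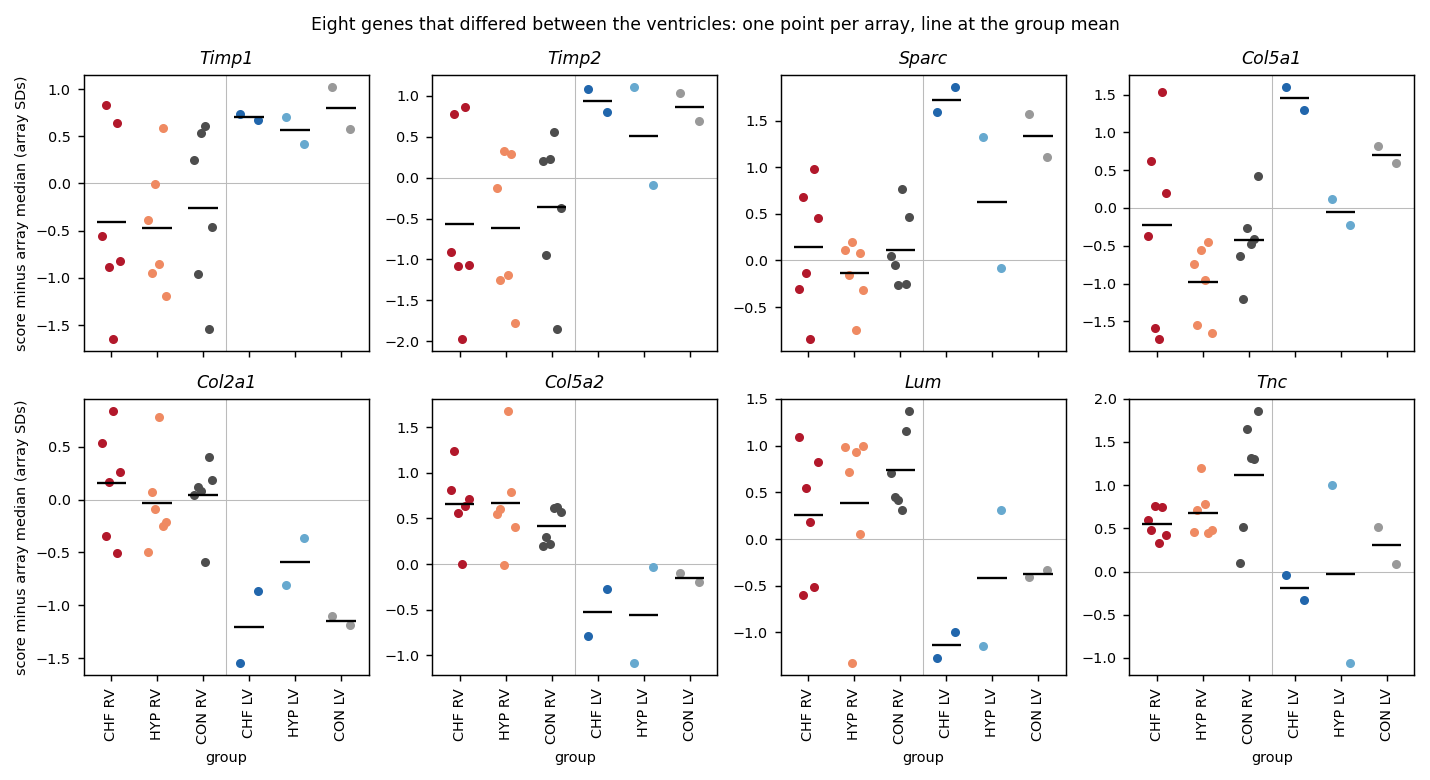
Scores minus the array median (vertical axis, in array SDs) are drawn for 8 of the called genes, with 1 point per array and a line at each group mean. In the upper row Timp1, Timp2, Sparc and Col5a1 have lower right than left ventricle means in each condition, and in the lower row Col2a1, Col5a2, Lum and Tnc have higher right than left ventricle means, all as deposited.

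Within a single condition the differences between ventricles rested on 2 left ventricle arrays each, and as deposited all 11 called genes had the direction of the pooled difference in every condition. The genes were called on the mean of these same differences, so the shared direction is partly built in. With the sign turned, 3 of the 11 had the opposite direction in CHF and 8 in CON. In HYP, where no array had its sign turned and all values were deposited with 3 decimals, the differences ran from 1.23 ± 0.371 for Col5a2 and 0.937 ± 0.330 for Mmp13 to -1.13 ± 0.713 for Timp2 and -1.03 ± 0.605 for Timp1. None of the 22 genes was called within HYP, CHF or CON, against 2 (0.0802%), 5 (0.2%) and 24 (0.962%) of 2494 features. Under the turned signs, Dcn was called within CON (2.83, limma adjusted p = 0.0118). Of the pooled calls, Col2a1, Sparc and Col5a2 passed in all 24 fits that left out 1 array, Col5a1, Adamts1 and Lum in 20, Timp2 in 13, Timp1 in 11, Tnc in 10, and Adam3a and Mmp13 in 9. Leaving out CHF left ventricle array 09, or CON left ventricle array 21 or 22, left 3 called genes, beside 140, 160 and 153 features in that order. Between 5 and 7 genes, beside 264 to 377 features, were called without right ventricle arrays 03, 05 or 08 of HYP, 09, 11 or 15 of CHF or 18 of CON, or without left ventricle arrays 03 or 05 of HYP or 15 of CHF.

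Markers of cell types were compared between the ventricles too. As deposited, all 4 tested erythrocyte markers were called lower in the right ventricle, as were 6.54% of all features, with a median difference of -5.44. With the sign turned 0 were called and the median was -1.31. Their mean score per array was between -3.55 and -0.740 in CHF, -4.42 and -2.03 in HYP and -4.84 and -1.92 in CON right ventricles. On the left ventricle arrays it was between 2.04 and 2.57 in CHF and between 2.92 and 4.23 in CON, while HYP had 3.92 on array 03 and -4.68 on array 05. Of 9 tested cardiomyocyte markers 2 were called lower in the right ventricle (median -0.872). Of 7 fibroblast markers 2 were called higher and 1 lower (median 0.194). The fibroblast list held the matrix genes Col1a1, Col3a1 and Timp1, and its 1 lower call was Timp1, so it is not independent of the members. Of 5 smooth muscle and pericyte markers 1 was called higher (median -0.0511). The shares over all features were 11.8% higher and 6.54% lower. Of 2 endothelial and 3 macrophage markers tested, 0 were called. The turned medians were -0.377 for cardiomyocyte, -0.0858 for fibroblast and 0.159 for smooth muscle and pericyte markers, with 0 called in each. The part of these in the matrix gene differences was not tested. In whole tissue, fewer cells of a type and less RNA per cell cannot be told apart.

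The start regions of 4 of the genes called between the ventricles are shown because, as deposited, the inhibitors Timp1 and Timp2 were both lower and Mmp13 and Tnc both higher in the right ventricle. Each sequence holds the 250 bases before the gene's start from RefSeq (GRCr8), written 5′ to 3′ on the gene's strand, with motif matches in capitals. The regions are chrX:3771123-3771372 (minus strand), chr10:104089215-104089464 (minus strand), chr8:12782579-12782828 (plus strand) and chr5:82476132-82476381 (minus strand).
Timp1: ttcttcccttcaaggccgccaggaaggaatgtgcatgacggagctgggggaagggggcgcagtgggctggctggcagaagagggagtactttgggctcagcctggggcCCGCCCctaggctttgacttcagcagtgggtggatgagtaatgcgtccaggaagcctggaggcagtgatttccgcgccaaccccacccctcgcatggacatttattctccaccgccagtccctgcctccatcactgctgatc
Timp2: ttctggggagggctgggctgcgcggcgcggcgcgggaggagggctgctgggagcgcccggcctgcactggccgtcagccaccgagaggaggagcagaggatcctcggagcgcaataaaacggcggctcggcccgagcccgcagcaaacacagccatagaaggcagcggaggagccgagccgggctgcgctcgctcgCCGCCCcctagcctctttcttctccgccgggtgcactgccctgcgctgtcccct
Mmp13: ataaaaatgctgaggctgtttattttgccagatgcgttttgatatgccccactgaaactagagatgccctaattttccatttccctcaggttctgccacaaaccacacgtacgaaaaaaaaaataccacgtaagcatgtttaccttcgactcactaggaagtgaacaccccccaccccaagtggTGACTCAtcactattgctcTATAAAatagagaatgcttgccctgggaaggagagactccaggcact
Tnc: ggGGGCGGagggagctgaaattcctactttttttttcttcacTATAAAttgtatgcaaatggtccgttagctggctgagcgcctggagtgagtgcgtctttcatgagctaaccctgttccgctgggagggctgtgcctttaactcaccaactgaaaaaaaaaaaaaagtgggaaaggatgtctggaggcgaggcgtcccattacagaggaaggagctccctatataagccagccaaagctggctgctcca
Both strands were searched, for the AP-1 motif with the letters TGANTCA, and for the usual TATA box with the letters TATAAA. The box named for CCAAT was searched with just those letters, and the GC box with the letters GGGCGG, and no matches shown overlap. Timp1 holds a GC box at bases 109 to 114 and Timp2 at bases 197 to 202, each on the opposite strand and counted from the first base printed. Mmp13 holds an AP-1 match at bases 185 to 191 and a TATA box at bases 204 to 209. Tnc holds a GC box at bases 3 to 8 and a match to the TATA box letters at bases 43 to 48. Counted from the gene's start, this match begins at -208, against -47 for that of Mmp13. The letters tatataa near the end of the Tnc region are not a match to TATAAA and are not marked. The AP-1 letters occurred in 6.34% of 33469 start regions, TATAAA in 12.9%, CCAAT in 34.0% and GGGCGG in 30.5%. Among the 24 matrix genes that entered the right ventricle comparisons and had a start region, these were in 2, 4, 4 and 14. Members outside those comparisons, such as Mmp10 and Mmp12, were not counted. The matches are a description of the letters.

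Much of the scatter within the right ventricle groups was shared by many genes. Group means were subtracted on the 18 right ventricle arrays, and the first principal component of what remained held 43.3% of the variance over 1656 features, and ranged over arrays from -20.6 to 31.1 in CHF, -18.1 to 23.4 in HYP and -15.8 to 14.0 in CON. Several matrix genes followed it closely, which is given as a description since all genes share the arrays. Across right ventricle arrays the correlation of a gene's deviation with the component was 0.960 for Itgb7 (Spearman 0.874, n = 16), 0.936 for Col3a1 (Spearman 0.940, n = 18), 0.932 for Timp2 (Spearman 0.930, n = 18) and 0.912 for Timp1 (Spearman 0.917, n = 18). Without CHF arrays 14 and 10, the farthest from the middle, these were 0.939, 0.929, 0.903 and 0.884. Adam3a ran the opposite way, at -0.937 (Spearman -0.926, n = 18), and Lum at -0.732. Other genes had little of it, with 0.0484 for Dcn, 0.138 for Col5a2, 0.260 for Tnc and 0.313 for Col1a1. Of 17 matrix genes with all 18 values, 9 (52.9%) exceeded 0.5 in size, against 935 of 1656 features (56.5%).

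All 24 arrays were then projected onto this component, over the features measured on every array. The medians of the projection were -9.90 in CHF, -6.24 in HYP and 4.94 in CON right ventricles, against 17.96 and 22.4 in CHF, 5.69 and 14.7 in HYP and 21.7 and 24.1 in CON left ventricles. As deposited, all 6 left ventricle arrays lay on its positive side. The 3 of them with doubted direction lay at -8.57 (CHF array 09), -7.86 (CON array 21) and -10.2 (CON array 22) when their sign was turned. With the component as a covariate, chosen after the data were seen, 5 of the 22 genes and 143 of 2494 features were called between the ventricles. Of the 5, 3 had been called before, namely Col2a1 (0.769), Col5a2 (1.06) and Sparc (-0.859). The other two were Itga8, at 1.79 ± 0.308 (limma adjusted p = 0.00215), and Col18a1, the collagen from which endostatin is cut, at 1.36 ± 0.313 (limma adjusted p = 0.0189). Both followed the component on the right ventricle arrays, with correlations of 0.888 (Itga8, n = 16) and 0.868 (Col18a1, n = 14). The fit with the covariate used the signs as deposited and was not run with the sign turned. Timp1 and Timp2 then differed by -0.314 ± 0.203 (limma adjusted p = 0.380) and -0.400 ± 0.241 (limma adjusted p = 0.348). Col3a1, at -0.673 without the covariate, changed sign to 1.12 ± 0.335 with it and was not called (limma adjusted p = 0.0522). Tnc differed by 0.835 ± 0.284 (limma adjusted p = 0.0838), close to its value without the covariate.

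**Figure D5:**
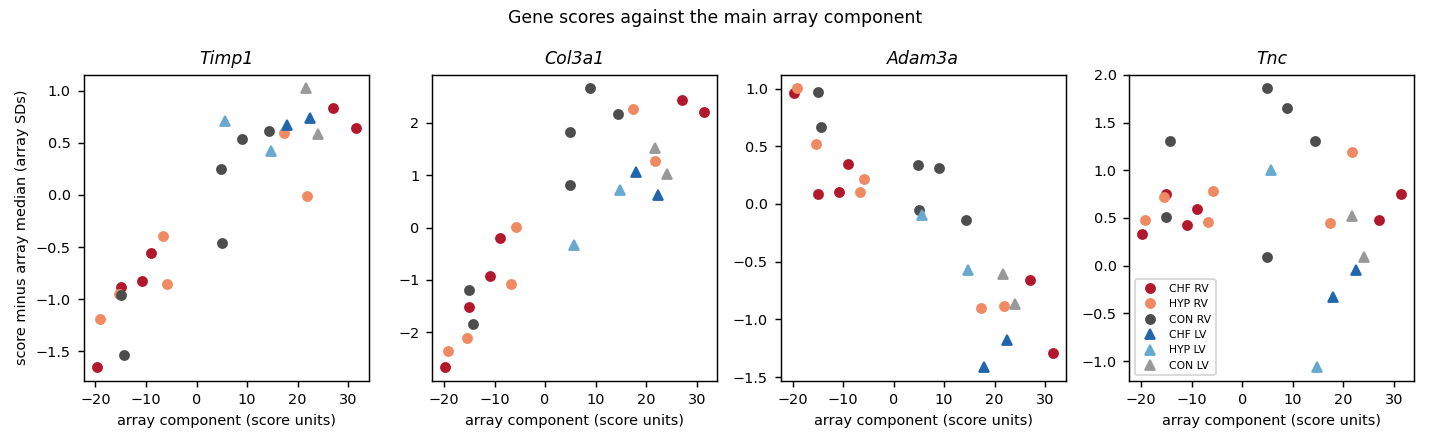
The score minus the array median (vertical axis, in array SDs) is plotted against the projection onto the main array component (horizontal axis, in score units) for Timp1, Col3a1, Adam3a and Tnc, with circles for right and triangles for left ventricle arrays. Timp1 and Col3a1 increase and Adam3a decreases along the component (correlations of deviations 0.912, 0.936 and -0.937 on right ventricle arrays), while Tnc shows little relation (0.260).

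In the left ventricle, which monocrotaline does not load directly, 0 of the 22 genes and 0 of 2494 features (0%) were called in each of CHF against CON, HYP against CON and CHF against HYP. An unadjusted p below 0.05 (limma) was reached by 0 of the 22 in each, against 0.882%, 1.84% and 3.01% of all features. As deposited, the smallest unadjusted p over these comparisons belonged to Sparc and Col5a1 in CHF against HYP. Sparc lay at 1.59 and 1.86 in CHF, against 1.33 and -0.0770 in HYP, a difference of 1.10 ± 0.532, and Col5a1 at 1.60 and 1.3 in CHF, against 0.116 and -0.226 in HYP, a difference of 1.5 ± 0.747 (limma adjusted p = 0.958 for each). Without HYP array 05 the Sparc difference was 0.400, so 1 array set most of it, and the turned differences were -0.488 for Sparc and -0.0940 for Col5a1. For CHF against CON the smallest p belonged to Lum (-0.769 ± 0.673) and Col5a1 (0.744 ± 0.747), and for HYP against CON to Col1a1 (-0.835 ± 0.460) and Sparc (-0.716 ± 0.532). Turned, these were -0.231 and 0.556 for CHF against CON and 0.186 and 1.96 for HYP against CON. With the sign turned on the CON arrays, 2 of the 22 genes were called in HYP against CON, Mmp13 at -2.44 (limma adjusted p = 0.0290) and Mmp2 at -1.91 (limma adjusted p = 0.0464), beside 96 features (3.85%). In CHF against CON and in CHF against HYP, 0 of the 22 and 0 features were called under the turned signs (limma), 1 of the 22 had an unadjusted p below 0.05 in each, and 10 and 9 genes changed sign. The effect of each condition was also compared between the ventricles, and 0 of the 22 genes and 0 features (0%) were called for CHF against CON or HYP against CON. An unadjusted p below 0.05 was reached by 0 of the 22 in each, against 2.73% and 2.49% of all features. As deposited, Col5a2 had the smallest p in both, at 0.617 ± 0.525 and 0.654 ± 0.525, and its turned values were -0.496 and 0.954. Turned, 0 of the 22 genes were called in either, beside 9 (0.361%) and 33 (1.32%) features, while 4 and 7 had an unadjusted p below 0.05 (limma). The smallest p then belonged to Dcn for CHF against CON, at -2.67 (limma adjusted p = 0.211), and to Mmp13 for HYP against CON, at 2.48 (limma adjusted p = 0.0513). The median difference of the 22 genes was -0.0204 for CHF and 0.0271 for HYP as deposited, and -0.965 and -0.111 when turned.

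The wider matrix pathway was followed in 120 other genes for profibrotic signalling, collagen processing, plasminogen proteases, further matrix proteins and focal adhesion, of which 76 were on the array and 63 were tested in the right ventricle. In CHF against CON, 1 was called, higher in CHF, and 6 had an unadjusted p below 0.05, against 0.907% and 8.5% of all features. Under the turned signs 0 were called. The called gene was Cav1, a caveolin gene, at 4.92 ± 0.868 (limma adjusted p = 0.0302). It was measured on 2 CHF arrays at 3.47 and 5.13 and on 3 CON arrays between -1.16 and -0.113. Its difference was -3.68 with the sign turned. The others were Bmp2 (-2.65) and Sdc3 (-1.16), which had lower means in CHF, and Tgm2 (1.02), Ctsd (2.55) and Fbn1 (3.56), which had higher ones, with Ctsd and Fbn1 on 2 CHF arrays each, and turned values of 0.653 and -3.0. Sdc3, a membrane proteoglycan, lay at -2.47, -1.46 and -0.865 in CHF, against -1.45, -0.175 and 0.155 in CON, and Tgm2, a crosslinking transglutaminase, at -0.913, 0.491 and 0.955 in CHF, against -2.16, -0.909 and 0.473 in CON. In HYP against CON, 0 were called and 6 had an unadjusted p below 0.05, namely Bmp2, Edn1, Pdgfb, Mme, Sdc3 and Tnr, all with lower means in HYP, against 0.281% and 4.1% of all features. In CHF against HYP, 0 were called and 3 had an unadjusted p below 0.05 (limma), namely Ctsd, Mme and Cav1, against 0% and 4.94% of all features. Between the ventricles, 7 of 44 were called higher and 3 lower in the right ventricle, against 11.8% and 6.54% of all features, and 0 were called with the sign turned.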

How the data were processed

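RNA of 24 rat ventricle samples was measured on 2-colour arrays, each with a reference pool as the second channel. The authors deposited a score per probe and array, with missing entries. For scanner, dyes, background correction and normalization, no source used here gives a description. Array means were near 0 and SDs near 1, so the score was read as a ratio standardised within the array. No signal over background is given, and the number of arrays limits the precision.

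Each array's median was subtracted, and probes of 1 symbol were averaged. Genes were named from the platform annotation, and 63 of 63 Entrez identifiers were found in RefSeq (GRCr8), with 0 symbols changed. A linear model per feature was fitted in limma 3.58.1 (R 4.3.3; lmFit, then contrasts.fit, then eBayes) where each group had at least 2 arrays, and p-values were adjusted over all features by Benjamini-Hochberg. Right ventricle comparisons used 18 arrays, and all others 24 arrays in 6 groups, which lets the pairs of left ventricle arrays share the spread of the other groups. On simulated data, 13% of changes of 2 gene SDs were recovered for CHF over CON (3199 features) and 66% for right over left (2494). Of unchanged features, 0% were called. The simulated noise was independent between features and lacked the component shared by the real arrays, so these shares may not hold for them.

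The members and lists were chosen with earlier results of these data known. Genes were named by a rule: the markers Col1a1, Col3a1 and Timp1, every called gene, the genes with the smallest p in each comparison, the extreme genes of each role, and other pathway genes with an unadjusted p below 0.05 in a right ventricle comparison. Members such as Mmp2, Spp1, Lama3, Itgb1 and Col18a1 were named after their values were seen. Left and right arrays that share a sample number are not said to come from 1 animal. Alternatives were no centring, turned signs, single probes, a stricter minimum of 4 arrays, array weights, each pair of groups alone, each array left out, a replicate block and the array component as a covariate.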

Additional observations from a re-analysis of the deposited data

Results flagged for a closer look

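Among 73 combinations of a gene and a group of 4 to 10 arrays, 2 held an array far from the rest by Dixon's test, which flags about 1 in 20 groups by chance. Col2a1 on CON right ventricle array 20 was -0.589, with the nearest other CON array at 0.0470 and the farthest at 0.406. Lamc1 on CON right ventricle array 17 was -2.12, with the other 3 measured CON arrays between 0.677 and 0.974. Without that array the Lamc1 difference between CHF and CON right ventricles was 1.32, against 2.05 with it.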

How the results depend on the processing

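The count of 0 members in each of the 3 right ventricle comparisons was the same under every alternative run, and likewise for CHF over CON and CHF over HYP in the left ventricle and for the differences of effects between ventricles. The right over left count of 11 (beside 457 of 2494 features) was 0 with the sign turned (0 features), 5 with the array component as a covariate (143 features, added after seeing the data), and between 3 and 12 with 1 array left out (140 to 683 features). It was 12 without centring (563 features) and 12 of 16 with array weights (757 of 1617), 11 with single probes (456 of 2540) and with the stricter minimum (463 of 2389), and 13 without CHF right ventricle arrays 10 and 14 (863 of 2447). With the sign turned, the differences of Col2a1 (-0.149), Sparc (0.0482), Adamts1 (-0.0152) and Mmp13 (-0.313) had the opposite sign, and 2 members were called in HYP over CON left ventricles in place of 0. The cause was not tested. With the replicate block on the 6 sample numbers found in both ventricles the right over left count was 13 (1041 of 2433 features), as in the same 6 pairs without it (949 features). The correlations of deviations between arrays with the same number ran from -0.297 to 0.416. Of 6 left ventricle arrays, 3 (HYP 03 and 05, CHF 15) correlated best with their own number among the right ventricle arrays of their condition. The 2 left ventricle arrays of a condition have mirror-image deviations from their mean, so these 6 comparisons are not independent. The pairing is not established. Of 896 recomputed gene differences, 101 lost a call, 4 of them with the sign reversed, 2 gained one, and 30 uncalled ones changed sign. They covered only called genes, genes with the smallest p and the 3 markers, each in its own comparison. Gains by other members are not counted, such as Itga8 and Col18a1 with the covariate and Mmp13 and Mmp2 in turned HYP over CON left ventricles. The limits are the unsettled direction, the 2 left ventricle arrays per condition, and missing values, which kept 30 of 62 genes out.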
